A study of Homo sapiens with 6 samples.

Results

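Zinc finger genes of chromosome 19 were examined in the colorectal cancer line HT-29, an established human line, with and without depletion of OGT, the enzyme that attaches O-GlcNAc to nuclear and cytoplasmic proteins. RNA was sequenced from cells infected with a Scramble hairpin (n = 3 libraries, genotype labelled WT) and from cells given an OGT hairpin (shOGT, n = 3 libraries, genotype labelled OGT knock down). All libraries thus came from 1 cell line carrying a hairpin, none came from uninfected cells, and the hairpin used for RNA-seq is not named. The members were the protein-coding genes on chromosome 19 whose symbol begins with ZNF, ZSCAN, ZKSCAN, ZFP or ZIM followed by a digit. There were 50 of them among the 5681 genes of the deposited table. GENCODE version 29, on GRCh38, lists 263 genes that meet the same rule, and the other genes were not analysed here.

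The table holds only genes that the authors found changed. No gene in it had less than a 2-fold change in their comparison, so a gene being called says little, and the direction of the change, the order of the genes and their levels carry the description. The labels do not say whether the libraries came from separate cultures, so that p-values measure the spread between these libraries, which may be technical.

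Most of these genes encode C2H2 proteins, in which each finger is a short fold held by a zinc ion between cysteine and histidine residues, and in which a row of fingers reads a stretch of DNA. Many of the genes on chromosome 19 also carry a KRAB domain, which binds the corepressor TRIM28 (KAP1). TRIM28 in turn brings in the histone methyltransferase SETDB1, HP1 proteins and the NuRD deacetylase complex, and the best known targets of this silencing are retroelements. The genes arose by repeated duplication and lie in clusters along the chromosome, so that neighbours often resemble each other in sequence.

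The finger is shown by the coding bases of the first finger of the members with the most extreme changes, written 5′ to 3′ with the cysteine and histidine codons in capitals. The bases come from GENCODE version 29 transcripts.
ZNF540: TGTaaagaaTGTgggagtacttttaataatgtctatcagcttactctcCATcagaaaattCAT
ZNF671: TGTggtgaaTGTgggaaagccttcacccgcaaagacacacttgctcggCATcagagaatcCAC
ZSCAN4: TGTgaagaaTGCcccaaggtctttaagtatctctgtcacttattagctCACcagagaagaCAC
ZNF358: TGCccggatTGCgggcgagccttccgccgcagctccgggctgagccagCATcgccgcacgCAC
The stretch of ZNF540 lies at chr19:37611845-37611907 on the plus strand of GRCh38, in the coding part of exon 5 of 5. That of ZNF671 lies at chr19:57721165-57721227 on the minus strand, in exon 4 of 4, that of ZSCAN4 at chr19:57678543-57678605 on the plus strand, in exon 5 of 5, and that of ZNF358 at chr19:7519699-7519761 on the plus strand, in exon 2 of 2. All hold the 4 zinc-binding codons at the same spacing over 63 bases, whereas their GC content was 31.7% in ZNF540, 52.4% in ZNF671, 42.9% in ZSCAN4 and 74.6% in ZNF358.

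OGT, which checks the labels, had 9628 to 11638 normalized counts in Scramble and 484 to 621 in shOGT, and shOGT retained 4.99% of the Scramble level. Normalized counts are reads per gene divided by 1 size factor per library, without division by gene length. Reads recovered for these genes numbered 4145921 to 4504303 per Scramble library and 3302558 to 3471647 per shOGT library, and the size factors were 1.09 to 1.13 and 0.879 to 0.950. Of 8 intestinal epithelial markers, VIL1, KRT19 and KRT20 were in the table and the other 5 were not among its genes. VIL1 was lower in shOGT (mean 868 against 1891 normalized counts), whereas KRT19 (12388 against 4740) and KRT20 (5641 against 877) were higher. Of 5 markers of other cell types, PECAM1 was in the table, with a mean of 47.5 normalized counts in Scramble and 168 in shOGT. Whether these shifts bear on the zinc finger genes was not tested.

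The members in this table changed in both directions. Of the 50 members, all of which passed the filter on low values, 31 were called higher and 18 were called lower, and ZNF565 was not called (limma's trend method on log2(normalized count + 1), an absolute log2 fold change over 1 and a Benjamini-Hochberg adjusted p under 0.05, called in either direction for 99.4% of all genes). Over all 5671 genes tested, 52.2% were called higher and 47.2% lower, against 62.0% and 36.0% of the members. All members are protein-coding, and of the 4127 coding genes tested 42.3% were called higher and 57.1% lower. The share called higher among the members was thus nearer to that of all genes than to that of coding genes, the closer list. None of these shares speaks for the annotated genes outside the table. The members' median log2 fold change was 1.15, or 1.11 with ZNF665, which had no read in Scramble, at its lower bound, and that of all genes was 1.05. The median of all genes turned to between −0.96 and −0.90 without any 1 of the shOGT libraries. The filter asks for a value of 1 in 3 libraries, so genes detected in shOGT alone were then no longer tested. The table holds no values near 0 and nearly as many genes on either side, so that this loss turned the median. The split of all genes turned as well, to 2518 higher and 2604 lower without the shOGT library numbered 4, 2496 and 2561 without number 5, and 2483 and 2546 without number 6. Without any 1 of the Scramble libraries, 2865 to 2897 genes were higher, and the median of all genes stayed between 1.02 and 1.04. With each of the 6 libraries left out in turn, 26 to 31 members were higher and 16 to 18 lower. The groups did not overlap for 48 of the 50 members, against 99.5% of all genes, and the exceptions were ZNF565 and ZNF878. An exact permutation test of 3 libraries against 3 cannot give a p below 0.1 for any gene.

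Other gene lists split differently. Of the other 303 protein-coding genes of chromosome 19, 54 were higher and 249 were lower, with a median log2 fold change of −1.46. Of the 72 genes with the same name pattern on other chromosomes, 34 were higher and 37 were lower, with a median of −1.003. Of all 4127 protein-coding genes tested, 42.3% were higher and 57.1% were lower. When size factors were instead set by median ratios across the table, the log2 fold changes of all genes rose by a median of 0.71, and 32 members were called higher and 5 lower (2980 and 1090 of all genes). No member changed sign, and ZNF556, ZNF358, ZNF155, ZNF112 and ZSCAN4 were those still called lower. Setting size factors by median ratios takes most genes as unchanged. The table holds only changed genes, so the rescaled values, here and below, cannot tell which size factors are right.

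**Figure D1:**
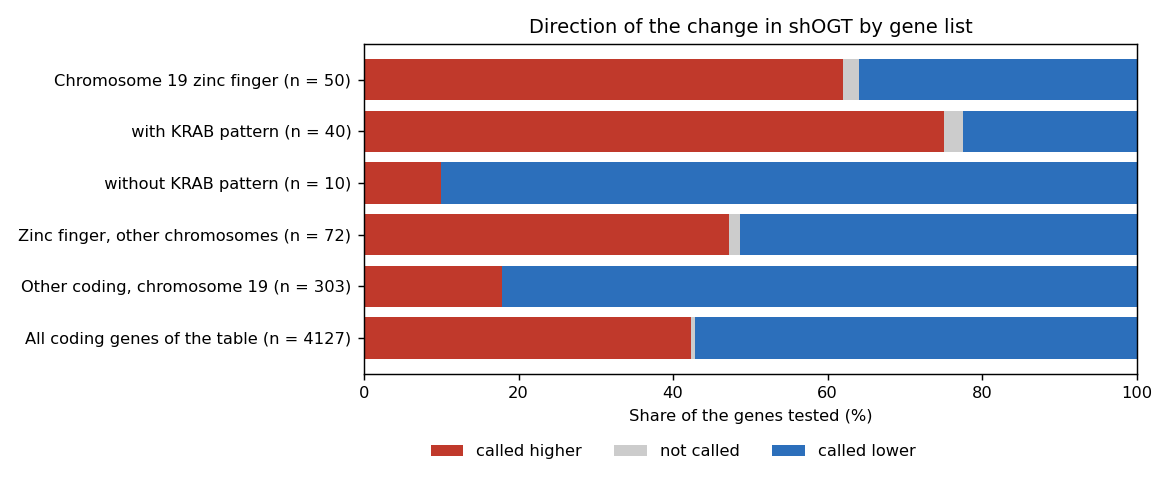
Share of the genes tested (x axis, %) that were called higher, not called or called lower in shOGT, for the zinc finger genes of chromosome 19, those with and without a KRAB pattern, and 3 comparison lists. The bar of chromosome 19 zinc finger genes is higher in 62.0%, that of the other coding genes of the chromosome in 17.8%.

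The summed normalized counts of the members came to 9562, 10163 and 10123 under Scramble and to 17535, 20490 and 18778 under shOGT. All shOGT sums lay above all Scramble sums. The members called higher summed to between 6243 and 6914 in Scramble and to between 16125 and 19280 in shOGT. Those called lower summed to between 3183 and 3410 in Scramble and to between 1098 and 1339 in shOGT. Per kilobase of gene length, the median level of the members called higher went from 21.7 normalized counts in Scramble to 51.1 in shOGT, and that of the members called lower from 36.3 to 14.5. ZNF524 had the highest level per kilobase in Scramble, at 223, and ZNF121 had the highest in shOGT, at 459.

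The largest rise with a mean of at least 20 normalized counts was that of ZNF540 (ENSG00000171817, chr19:37551406-37614097). It had 15.1, 10.8 and 13.8 normalized counts in Scramble and 113, 165 and 170 in shOGT. The groups lay far apart, and shOGT was 11.3-fold higher, a log2 fold change of 3.39 (SE 0.28, limma adjusted p = 3.79e-08). ZNF671, a KRAB gene described as silenced by promoter methylation in several carcinomas, had 7.98, 9.91 and 6.44 in Scramble and 35.8, 36.4 and 35.3 in shOGT. It was also at a low level in Scramble, and its log2 fold change was 2.03 (SE 0.35, limma adjusted p = 6.68e-05). ZNF461 had 19.5, 26.1 and 30.4 in Scramble and 94.7, 97.5 and 79.7 in shOGT, a log2 fold change of 1.81. ZNF570 had 28.4, 33.3 and 23.9 in Scramble and 92.6, 109 and 75.1 in shOGT, a log2 fold change of 1.65. Both rose more than 3-fold from a low level.

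The next members in this order were more abundant. ZNF571 had 75.4, 86.5 and 131 normalized counts in Scramble and 263, 302 and 314 in shOGT, a log2 fold change of 1.61. ZNF765 had 168, 187 and 175 in Scramble and 455, 627 and 557 in shOGT, a log2 fold change of 1.61. For both genes every shOGT library lay above every Scramble library. ZNF468 had 703, 705 and 710 in Scramble and 1987, 2370 and 2100 in shOGT, a log2 fold change of 1.60 (SE 0.09, limma adjusted p = 1.13e-09). Exons of neighbouring genes on the same strand, among them ZNF28 and ZNF320, cover 53.3% of its exon bases, so part of its count is uncertain. ZNF121 (ENSG00000197961, chr19:9560353-9584533), the member with the highest normalized count in every library, had 1027, 1147 and 1165 in Scramble and 3100, 3629 and 3267 in shOGT. This was a 2.99-fold rise, a log2 fold change of 1.58 (SE 0.09, limma adjusted p = 1.28e-09). The log2 fold changes of ZNF571, ZNF765, ZNF468 and ZNF121 lay within 1 standard error of each other, so their order is not resolved.

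**Figure D2:**
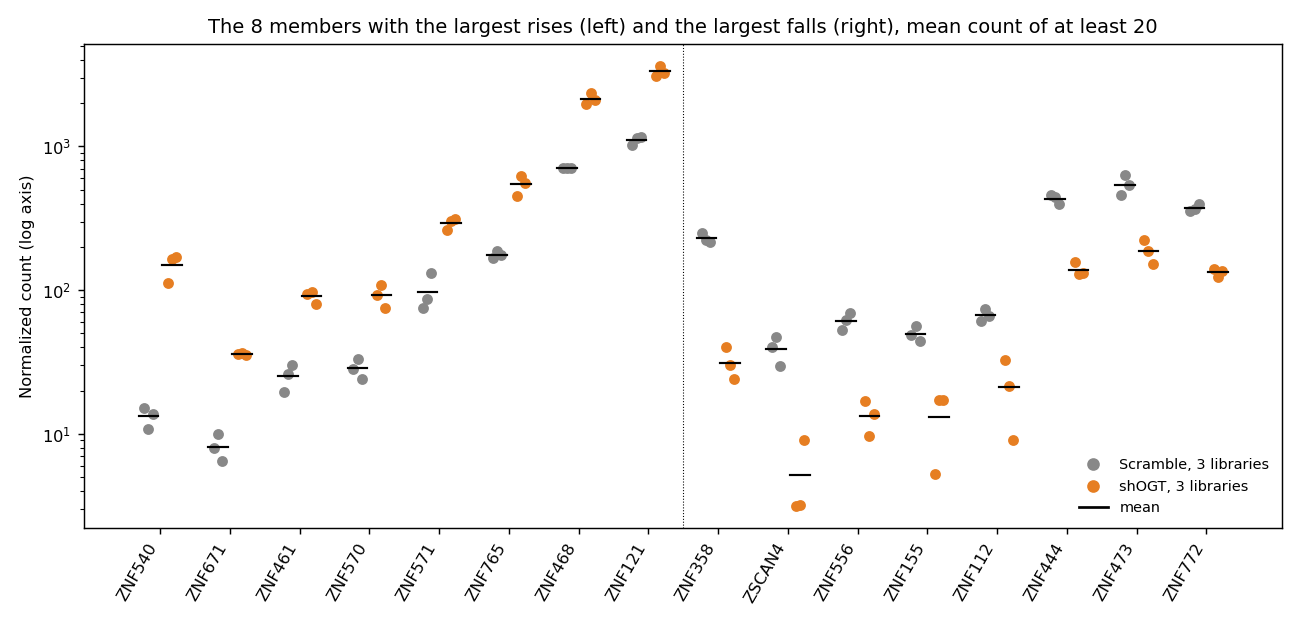
Normalized counts on a log axis in each of the 3 Scramble (grey) and 3 shOGT (orange) libraries for the 8 members with the largest rises and the 8 with the largest falls, with the mean of each group as a line. The groups do not overlap for any of these 16 genes.

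ZNF665 had 0 reads in each Scramble library and 6, 1 and 5 reads in shOGT. Against a floor of 3 reads per Scramble library it was at least 1.61-fold higher, and it passed the filter through the shOGT libraries alone. ZNF878 had 7.21 to 13.8 normalized counts in Scramble and 12.6 to 35.3 in shOGT, so that the groups overlapped although it was called. Of the 31 members called higher, 23 rose less than 3-fold on the log2(normalized count + 1) scale. ZNF540 and ZNF671 rose more than 4-fold, and for ZNF665 the bound is all that can be given. The median log2 fold change was 1.40 among the members called higher, with ZNF665 as fitted or at its bound, against 1.62 among all coding genes called higher. ZNF665 and ZNF878, and the members named outside the rule for named genes in the following paragraphs, were picked after their values were seen.

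The largest fall was that of ZNF358 (ENSG00000198816, chr19:7515292-7521026). It had 251, 224 and 215 normalized counts in Scramble and 39.997, 29.99 and 23.9 in shOGT, so that shOGT retained 13.6%. The log2 fold change was −2.87 (SE 0.22, limma adjusted p = 2.31e-08). A same-strand gene, AC008878.1, shares 18.5% of the 75-base stretches of its transcript, which leaves part of the count uncertain. ZSCAN4, known from the earliest cell divisions of the embryo and from telomere maintenance in stem cells, had 39.9, 46.9 and 29.4 in Scramble and 3.16, 3.21 and 9.11 in shOGT. Few reads were left in shOGT, and the log2 fold change was −2.80 (SE 0.43, limma adjusted p = 2.61e-05).

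ZNF556 had 53.2, 62.2 and 69.0 normalized counts in Scramble and 16.8, 9.64 and 13.7 in shOGT, a log2 fold change of −2.14. ZNF155 had 48.8, 55.9 and 44.2 in Scramble and 5.26, 17.1 and 17.1 in shOGT, a log2 fold change of −1.99. Exons of AC006213.1 on the opposite strand cover 41.4% of the exon bases of ZNF155. The authors name a strand-specific library kit, but the counting is not stated to use strand. ZNF112 had 61.2, 73.9 and 66.3 in Scramble and 32.6, 21.4 and 9.11 in shOGT, a log2 fold change of −1.79, and its shOGT libraries spread over more than 3-fold. The other members with large falls had higher counts. ZNF444, a SCAN domain gene, had 456, 447 and 398 in Scramble and 156, 129 and 131 in shOGT, a log2 fold change of −1.64. ZNF473, a component of the U7 ribonucleoprotein that cuts histone transcripts, had 456, 628 and 537 in Scramble and 222, 189 and 151 in shOGT, a log2 fold change of −1.53. ZNF772 had 356, 367 and 398 in Scramble and 141, 124 and 135 in shOGT, a log2 fold change of −1.48. These 3 genes kept their direction after rescaling, at −0.93, −0.81 and −0.76, which is under a 2-fold change.

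Along the chromosome, members whose starts lay within 1 Mb of the next were taken as 1 cluster. This gave 11 groups, of which 3 had at least 5 members. The cluster from ZNF565 to ZNF607 (starts between 36.18 and 37.70 Mb) had 11 members in the table of 28 annotated genes of the same name pattern. In shOGT, 10 were called higher and none lower, with a median log2 fold change of 1.42. Of all genes tested, 52.2% were higher and 47.2% lower, and of coding genes 42.3% and 57.1%. The exception, ZNF565, had 28.4, 36.9 and 25.8 normalized counts in Scramble and 70.5, 78.2 and 35.3 in shOGT, a log2 fold change of 0.93. ZNF540, ZNF461, ZNF570 and ZNF571 all lie in this cluster, and no coding gene of the table other than members starts within it. Its most abundant member was ZNF607, with 144, 105 and 151 in Scramble and 360, 363 and 326 in shOGT, a log2 fold change of 1.40 (SE 0.16, limma adjusted p = 1.03e-06). ZNF382, described as a growth-suppressing KRAB repressor that carcinomas silence, had 22.2, 27.0 and 39.6 in Scramble and 62.1, 77.1 and 89.9 in shOGT, a log2 fold change of 1.36.

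The cluster from ZNF432 to ZNF765 (52.03 to 53.39 Mb) had 9 members of 30 annotated genes, 8 higher and 1 lower (52.2% and 47.2% of all genes). Their median log2 fold change was 1.46 as fitted and 1.11 once ZNF665 was set to its bound. It holds ZNF468, the most abundant of the cluster, and ZNF28, with 584 to 645 normalized counts in Scramble and 1514 to 1854 in shOGT. The lower member was ZNF766, with 309, 294 and 276 in Scramble and 140.0, 142 and 86.5 in shOGT, a log2 fold change of −1.28. It lies between ZNF432 (1.11) and ZNF611 (1.46), both of which were higher. ZNF611 and ZNF600 share sequence, in 5.42% and 4.68% of their 75-base stretches, so small parts of their counts are uncertain. Both other coding genes of the table within this cluster, the endogenous retroviral envelope genes ERVV-1 and ERVV-2, were higher too. ERVV-1 had 1.77, 2.70 and 2.76 in Scramble and 36.8, 28.9 and 46.7 in shOGT, and ERVV-2 had 0.887, 3.60 and 3.68 in Scramble and 45.3, 20.4 and 47.8 in shOGT. In Scramble, ERVV-1 rested on at most 3 reads per library and ERVV-2 on at most 4.

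The cluster from ZNF524 to ZNF446 (55.60 to 58.47 Mb) had 13 members of 67 annotated genes. Of these members, 4 were higher and 9 lower (52.2% and 47.2% of all genes), with a median log2 fold change of −1.15. Its first 4 members, ZNF524, ZNF784, ZNF444 and ZSCAN5A, were all lower, and its next 3, ZNF264, ZNF460 and ZNF543, were all higher. ZNF264, the most abundant of the cluster, had 560, 547 and 589 normalized counts in Scramble and 1341, 1521 and 1259 in shOGT, a log2 fold change of 1.28 (SE 0.10, limma adjusted p = 2.05e-08). From ZNF772 to the end of the cluster, ZNF671 alone was higher. Of the 2 other coding genes of the table within this cluster, RNF225 was higher and CCDC106 was lower. After rescaling, 1 of the 9 lower members, ZSCAN4, was still called. With a gap of 0.5 Mb instead, the 4 first members left this cluster, and the remaining 9 were 4 higher and 5 lower. That gap also split the cluster from ZNF565 to ZNF607. Its parts were 4 members up to ZNF461, of which 3 were higher, and 7 from ZNF527 on, of which 7 were higher. The cluster from ZNF432 to ZNF765 kept its 9 members. With a gap of 2 Mb, the members from ZNF14 to ZNF675 (19.71 to 23.53 Mb) joined into a cluster of 5, of which 4 were higher.

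ZNF274, in the same cluster, binds the ends of other zinc finger genes and recruits SETDB1 there. It had 39.9, 72.1 and 34.0 normalized counts in Scramble and 11.6, 25.7 and 31.9 in shOGT. The groups were close, and the log2 fold change of −1.08 (SE 0.40, limma adjusted p = 0.0177) was no longer called without the Scramble library numbered 2 (−0.77), without the shOGT library numbered 4 (−0.67), with an ordinary linear model or after rescaling. ZNF91, which represses SVA retroelements in primates, lies outside these 3 clusters. It had 464, 520 and 549 in Scramble and 1033, 1371 and 1275 in shOGT, a log2 fold change of 1.25 (SE 0.12, limma adjusted p = 1.39e-07). Of 12 symbols written for a known role, ZNF91, ZNF274 and ZNF382 were in the table.

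**Figure D3:**
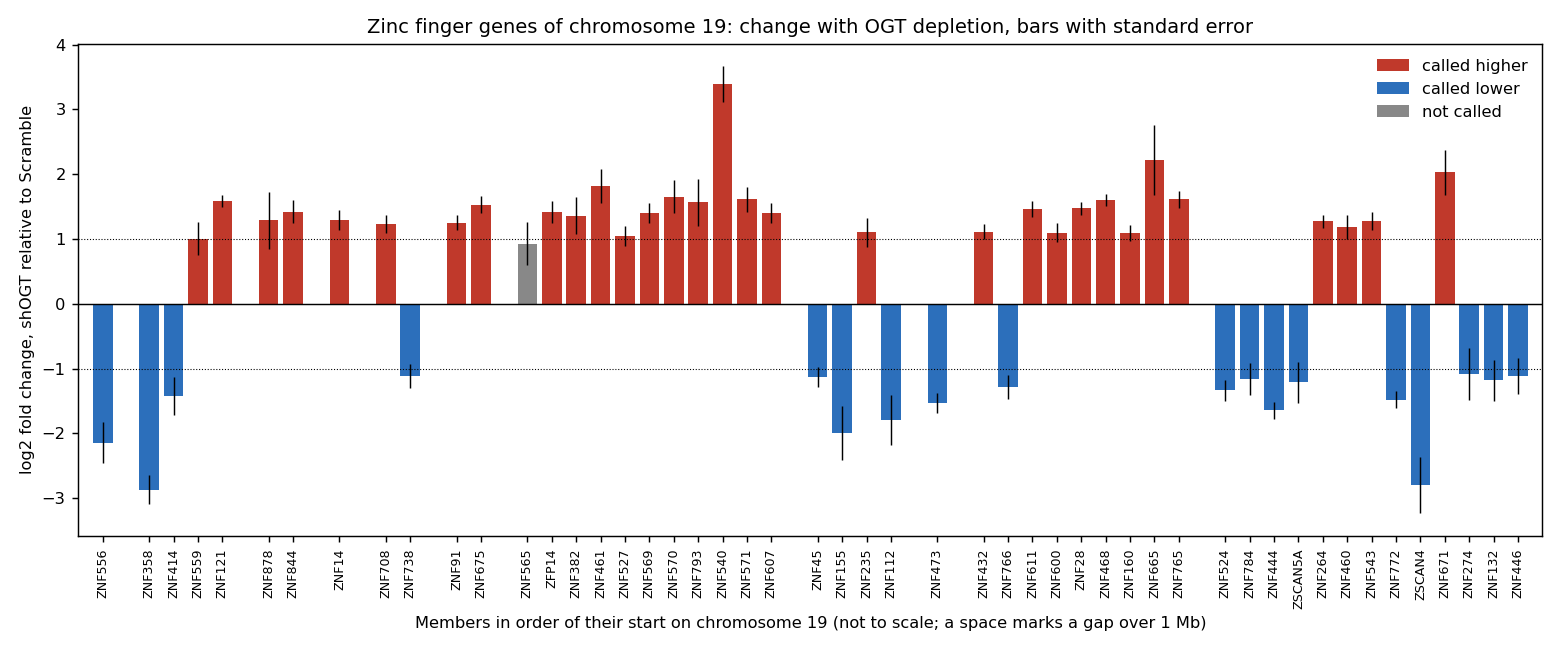
Log2 fold change of shOGT relative to Scramble (y axis, bars with standard error from limma) for the 50 members in order of their start on chromosome 19, with a space at each gap over 1 Mb and dotted lines at a 2-fold change. The 11 bars from ZNF565 to ZNF607 all point up, those from ZNF432 to ZNF765 point up except ZNF766, and the members from ZNF524 to ZNF446 point both ways.

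Members with and without a match to a KRAB pattern split differently. A pattern for the KRAB A box matched the translated transcripts of 40 members. Of these, 30 were higher and 9 lower, with a median log2 fold change of 1.28 (1.27 with ZNF665 at its bound). Beside these counts and those by finger number below, 52.2% of all genes were higher and 47.2% lower. For coding genes the shares were 42.3% and 57.1%. Of the 10 members without the pattern, 9 were lower and ZNF121 was higher, with a median of −1.38. The members called higher had a median of 13 fingers (6 to 31, the most in ZNF91), and those called lower had a median of 6.5 (0 to 18). The 0 is that of ZNF738, in whose annotated protein the finger pattern found no match. ZNF738 was lower, with 173, 189 and 199 normalized counts in Scramble and 99.99, 71.8 and 87.6 in shOGT. Of the 38 members with at least 8 fingers, 29 were higher and 8 lower, and of the 12 with fewer, 2 were higher and 10 lower. The limit of 8 fingers was set after the values were seen. A pattern for the SCAN domain matched ZNF444 and ZNF446 but neither ZSCAN4 nor ZSCAN5A, so it missed some SCAN proteins and the KRAB pattern may do likewise. The 10 members without the KRAB pattern may therefore include genes with a KRAB domain.

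Base composition also differed between the directions. The GC content of the transcripts had a median of 40.9% (36.0% to 49.9%) in the members called higher and of 48.3% (36.1% to 69.1%) in those called lower. Below 40% GC, 12 of 13 members were higher, and from 40% to 45% GC, 15 of 21 were. From 45% to 50% GC, 4 of 8 were higher, and of the 2 from 50% to 55%, ZNF274 was lower and ZNF565 was not called. At 55% GC or more, all 6 members (ZNF358, ZNF414, ZNF444, ZNF446, ZNF524 and ZNF784) were lower, and none of them carried the KRAB pattern. Among all coding genes of the table the share called higher was also smaller at higher GC content, at 68.5% below 40% and at 58.2%, 54.0%, 35.3% and 26.8% in the following classes. The other coding genes of chromosome 19 had a median GC content of 61.6%, against 42.4% for the members. Among the 32 members with the KRAB pattern and less than 45% GC, 26 were higher and 6 lower. Among the 8 with the KRAB pattern and at least 45% GC, 4 were higher, 3 were lower and ZNF565 was not called. The clusters differed in these features too. All 11 members from ZNF565 to ZNF607 and all 9 from ZNF432 to ZNF765 carried the KRAB pattern, with a median GC content of 38.7% and 40.9%. From ZNF524 to ZNF446, 7 of 13 carried it, and the median GC content was 49.5%. Of the zinc finger genes on other chromosomes, 7 of 9 were higher below 40% GC and 12 of 16 from 40% to 45%, against 4 of 8, 5 of 13 and 6 of 26 in the following classes. The parts of GC content and of position in the direction of the members were not tested, and in these members GC content, the KRAB pattern and the number of fingers go together.

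**Figure D4:**
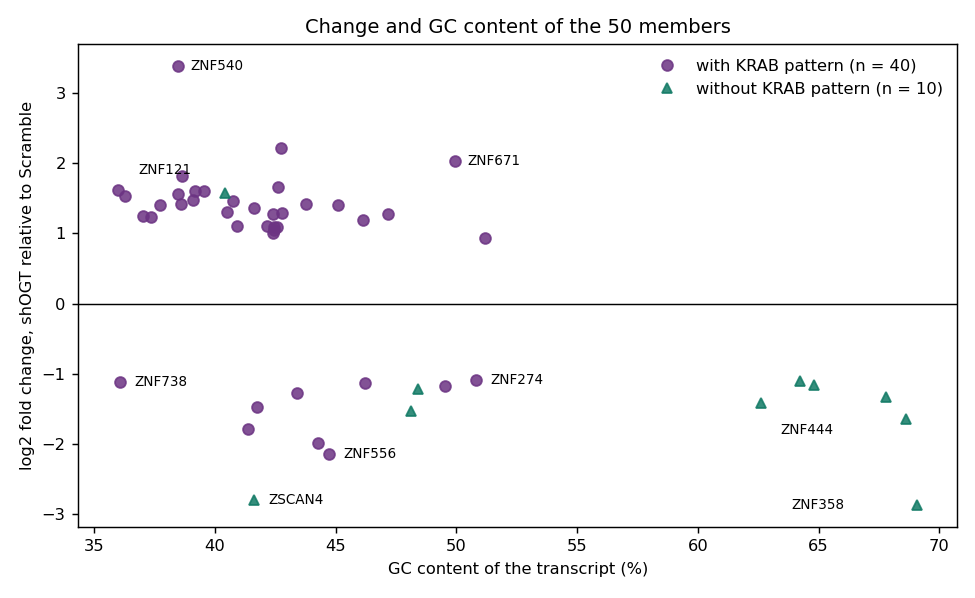
Log2 fold change of shOGT relative to Scramble (y axis) against the GC content of the transcript (x axis, %) for the 50 members, with circles for the 40 that carry the KRAB pattern and triangles for the 10 that do not. The 6 members at 55% GC or more are all lower and all triangles, whereas members under 45% GC lie on both sides with 27 of 34 called higher.

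Promoters showed less contrast in GC content than transcripts, with medians of 61.2% in the members called higher and 61.8% in those called lower. RefSeq promoters (GRCh38.p14) were matched by symbol for 40 members, and the 250 bases before the first listed start were read. Those of ZNF540, ZNF671 and ZSCAN4 are shown because these genes had the extreme changes among the members whose RefSeq start lies near the gene start in the table, written 5′ to 3′ with the motifs GGGCGG and CCGGAA, on either strand, in capitals.
ZNF540: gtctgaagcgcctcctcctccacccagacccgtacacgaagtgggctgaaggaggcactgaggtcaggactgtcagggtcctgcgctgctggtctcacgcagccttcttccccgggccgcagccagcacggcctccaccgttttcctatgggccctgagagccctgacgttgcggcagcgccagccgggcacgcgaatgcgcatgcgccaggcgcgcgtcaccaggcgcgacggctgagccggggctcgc
ZNF671: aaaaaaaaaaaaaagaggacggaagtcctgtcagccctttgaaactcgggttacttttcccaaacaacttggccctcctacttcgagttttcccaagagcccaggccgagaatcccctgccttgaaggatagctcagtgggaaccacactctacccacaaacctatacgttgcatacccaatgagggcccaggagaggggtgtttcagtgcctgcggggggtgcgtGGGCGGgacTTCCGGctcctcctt
ZSCAN4: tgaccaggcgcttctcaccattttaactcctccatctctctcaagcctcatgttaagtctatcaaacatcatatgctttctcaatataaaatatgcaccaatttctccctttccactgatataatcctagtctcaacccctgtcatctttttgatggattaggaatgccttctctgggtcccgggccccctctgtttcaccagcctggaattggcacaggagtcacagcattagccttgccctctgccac
They lie at chr19:37551124-37551373 on the plus strand for ZNF540, at chr19:57727625-57727874 on the minus strand for ZNF671 and at chr19:57668685-57668934 on the plus strand for ZSCAN4. The window of ZNF540 holds 25 CpG, that of ZNF671 holds 9 and that of ZSCAN4 holds 2. The medians were 18 CpG in the members called higher and 17 in those called lower, against 11 in all promoters and 19 in those of the other coding genes of chromosome 19 in the table. GGGCGG, the core of the SP1 box, stood in 64.0% of the promoters of members called higher and in 64.3% of those of members called lower, against 42.6% of all promoters and 74.8% of those of the other coding genes of chromosome 19 in the table. CCGGAA, the core of the ETS motif, stood in 7 of 25 and 2 of 14, in 14.5% of all promoters and in 16.6% of those other genes. CACGTG, the E-box bound by c-Myc, stood in 1 of 25 and 0 of 14, in 6.34% of all promoters and in 8.94% of those other genes. Both strands were searched, and CACGTG reads the same on either strand.

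The genes of the KRAB corepressor machinery that the table holds were lower in shOGT. Of 45 symbols written for this machinery, 13 were in the table, and all 13 were called lower (47.2% of all genes, 57.1% of coding genes). Their median log2 fold change was −1.26. Their median level in Scramble was 1198 normalized counts. Among all coding genes this median was 468 in those called lower and 73.2 in those called higher. ZNF274 is counted in this list as well as among the members. Neither TRIM28 nor SETDB1 is listed in the table. The deacetylase HDAC1 had 4040, 3970 and 3826 normalized counts in Scramble and 1260, 1206 and 1267 in shOGT, and retained 31.5%. CBX1, which encodes an HP1 protein, had 2192, 2122 and 1991 in Scramble and 581, 568 and 559 in shOGT, and retained 27.1%. The NuRD genes MTA1, RBBP4, GATAD2A and GATAD2B retained between 42.5% and 48.4%. The SETDB1 partner ATF7IP retained 41.6%, the HUSH complex gene FAM208A 49.0%, and the histone methyltransferase gene SUV39H1 31.7%. The largest falls were those of the chromatin assembly gene CHAF1B, with 270, 318 and 298 in Scramble and 67.4, 60.0 and 41.0 in shOGT, and of the DNA methyltransferase gene DNMT3B, with 254, 248 and 253 in Scramble and 53.7, 55.7 and 66.0 in shOGT. UHRF1, which guides maintenance methylation, retained 37.2%. After rescaling all 13 still had negative log2 fold changes, and 3 of them, CBX1, CHAF1B and DNMT3B, were called lower. Whether the fall of these genes bears on the zinc finger genes was not tested.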

How the data were processed

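RNA-seq of HT-29 cells was analysed in 6 libraries, 3 Scramble and 3 shOGT, matched to the columns by the number in their titles. The signal values deposited by the authors are normalized counts, meaning reads per gene divided by 1 size factor per library, and whole reads came back from 100% of them (tolerance 0.02). The group means, log2 fold changes and p-values in the deposited table are the authors' own, and served only to see which genes the table keeps (at least 2-fold, with their adjusted p-value below 0.05). The submitters' processing notes name cutadapt 1.9, HISAT2 2.0.4, UMI-tools, StringTie 1.3.4d, DESeq2 and edgeR without their roles, and the mouse build mm8. Positions matched the human GENCODE version 29 on GRCh38 for 5680 of 5681 genes.

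Values were tested as log2(normalized count + 1), on which changes of low genes are understated, with limma 3.58.1 (R 4.3.3, trend method) for the 5671 genes that reached 1 in 3 or more libraries, with Benjamini-Hochberg adjustment over all of them. The procedure was tested on simulated data in which most genes were unchanged. The table holds only changed genes, so that test does not show how the calls fare in it. Folds against a group at or under 3 reads in every library are lower bounds, which cover counting error only. Depth beyond the genes of the table is unknown. The members and lists were chosen with earlier results of these data known. Named genes were the 8 highest and 8 lowest members whose adjusted p was under 0.05, whose mean was 20 or more and whose groups did not overlap, the most abundant member of each cluster of at least 5, members of a list with known roles, the corepressor genes of the table, and OGT. The KRAB A box was matched as FxxEEWxxL or LYxxVMxE and a C2H2 finger as C, 2 to 4 residues, C, 12 residues, H, 3 to 5 residues, H, in the translated transcript with the longest coding sequence. Shared stretches of 75 bases and exon overlaps were taken from GENCODE. Alternatives were rescaling by the median of ratios, a pseudocount of 0.1, no filter, a mean of at least 5, an ordinary linear model, unadjusted p, the count tests of edgeR 4.0.16 and DESeq2 1.42.0 run on recovered reads, each library left out, and other cluster gaps.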

Additional observations from a re-analysis of the deposited data

How the results depend on the processing

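The count of members called higher was 31 and that of members called lower was 18. With a pseudocount of 0.1, no filter, a mean of at least 5, an ordinary linear model, unadjusted p, edgeR or DESeq2, the counts ran from 30 to 32 and from 17 to 18. With each library left out in turn, 26 to 31 members were higher and 16 to 18 lower, and the median log2 fold change ran from 1.04 to 1.23. The 26 came without the shOGT library numbered 5, where the higher members ZNF527, ZNF559, ZNF600 and ZNF878 lost their call and ZNF665 was not tested. The lower members ZNF738 and ZSCAN5A lost their call there too. ZNF665 did not pass the filter without any 1 of the shOGT libraries. In all, 13 members were without a call when 1 library was left out, ZNF665 included, and no member that was tested changed sign under any alternative. Rescaling by the median of ratios gave 5 lower members and a median of 1.86, with the median of all genes 0.71 higher. Since the table holds only changed genes, this rescaling cannot tell whether the calls it loses are wrong. Without the 13 members that share at least 10% of their exon bases or 75-base stretches with another gene, an alternative chosen after seeing the data, 25 were higher and 12 lower. With ZNF738 left out, which has no finger, 31 were higher and 17 lower. No paired analysis was possible because the labels number the libraries 1 to 6 and the groups share no number. Counts near the floor of 3 reads limit ZNF665, ZSCAN4 and ZNF155 in particular.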
